A study of Mus musculus with 2 samples.

Results

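The 9 genes described here (Mcpt8, Cpa3, Fcer1a, Ms4a2, Gata2, Prss34, Cd200r3, Il4 and Hdc) are markers of basophils and mast cells. They were taken by their name in the array files and were 9 of 24813 genes that the arrays carried under a RefSeq name, with 14 of 56603 probes. Expression was measured in monocytes from the spleen of ICR mice, an outbred stock, on 1-colour Agilent microarrays. The control group had a sham operation. The other group had a 5/6 nephrectomy (5/6Nx), an operation that removes 5/6 of the kidney mass and serves as a model of chronic kidney disease. At 8 weeks, CD11b and Ly6C antibodies were used to sort the cells of both groups. Each group had 1 array, and the sources used here do not give how many mice, pooled or single, stood behind it. The comparison sets monocytes of mice with reduced kidney mass against those of mice with intact kidneys.

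Basophils and mast cells are the granulocytes of allergic and antiparasite responses. Both display the high-affinity IgE receptor, in which the alpha chain encoded by Fcer1a binds IgE and the beta chain encoded by Ms4a2 amplifies the signal of the common gamma chain. When antigen cross-links the bound IgE, the cells release histamine and proteases from granules, and basophils also secrete interleukin-4. Basophils are short-lived cells of blood and spleen, whereas mast cells mature in tissues.

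All 9 genes were at least 2-fold higher in the 5/6Nx sample, counting measured differences and bounds, against 10.1% of all genes on the arrays, and none was lower, against 7.59%. In the sham sample 7 of them had no probe well above background. All 7 were well above background in the 5/6Nx sample only, as were 6.43% of all genes, or 18.4% of the genes that had no such probe in the sham sample. Each had a bound of at least 2-fold there, against 6.73%, and 6 of them had a bound of at least 8-fold, against 2.41%. Fcer1a and Hdc were measured on both arrays, and both were at least 2-fold higher in the 5/6Nx sample, against 12.3% of all genes so measured. With normexp background correction, which adds an offset of 50 and so shrinks the differences of dim probes, 7 of the 9 stayed at least 2-fold higher, against 5.65% of all genes. The bounds of Mcpt8 and Prss34 were then 4.06 and 3.61 log2 units. Those of Il4, Gata2, Ms4a2 and Cpa3 fell to 2.69, 2.17, 1.71 and 1.47, under 8-fold. Since each group had a single array, none of these values has a replicate check, and no test across animals was possible. The 9 genes were also chosen with earlier results of these data known, so the shares of all genes beside them are a description and not a test.

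A value called an intensity below is the processed brightness of a probe, followed by the error that the scanner software gave that spot. A difference is 5/6Nx minus sham in log2 units, after each array was scaled to its 75th percentile. That percentile was an intensity of 442.1 in the sham sample and 547.5 in the 5/6Nx sample. For a gene well above background on 1 array only, the fold is a bound, written "at least". It sets the bright value against the dimmest probe that still counted as well above background in the other sample, or the probe's own dim value where that was higher. The dimmest such probe, by its mean log2 value over spots, stood at an intensity of 12.8 for sham. Bounds move with the brightness of a probe and give the genes no order. A gene called at background had no probe well above background. All 14 probes were printed as 1 spot each. The software error covers the spot alone and leaves out labelling, sorting and the animals.

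The arrays as a whole differed widely. Both samples measured 15715 genes, of which 1926 were at least 2-fold higher in the 5/6Nx sample and 1719 lower (10.9%), a higher share of 52.8%. Median scaling gave 40.8%, spike-in scaling 79.5% and no scaling 73.7%. The median difference of all measured genes was -0.12, or -0.27, 0.31 and 0.19 with these 3 scalings. Among the genes named below with values within 2-fold, the sign of Itgam, Il4ra, Il7r, Stat6 and Rad50 turned with spike-in scaling. That of Spi1, Lyn and Syk turned with median scaling. Both arrays lay on 1 slide in 1 scan, per the file headers. All 12 monocyte markers were measured on both arrays, among them the sort antigens, with a difference of -0.35 for Itgam, which encodes CD11b, and 1.98 for Ly6c2.

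The promoter windows are shown first, because Gata2 is among the 9 genes and encodes a factor that binds GATA motifs. RefSeq windows of the build GRCm38.p6 matched all 9 genes, and the 250 bases before each annotated start were searched on both strands with no mismatch for AGATAA or TGATAA or AGATAG or TGATAG. Overlapping matches would be counted apart. At least 1 match lay in the windows of 7 of the 9 genes (77.8%), against 29.7% of 27025 genes. By window the counts were 7 of 11 (63.6%), against 26.5% of 32851 windows. The genes were Cpa3, Fcer1a, Ms4a2, Prss34, Cd200r3, Il4 and Hdc. No such letters lay in the window of Mcpt8 or in either window of Gata2. In 4 genes a match on the sense strand ended within 40 bases of the start: 5 bases before it in Ms4a2, 25 in Prss34, 27 in Cd200r3 and 40 in Cpa3. The share of all genes with a match so placed was not counted, so this placement is a description only. These 4 windows are printed 5′ to 3′ on the sense strand, with the motif matches of either strand in capitals. They are Cpa3 (chr3:20242182-20242431, minus strand), Ms4a2 (chr19:11623720-11623969, minus), Prss34 (chr17:25298144-25298393, plus) and Cd200r3 (chr16:44943428-44943677, plus).
Cpa3: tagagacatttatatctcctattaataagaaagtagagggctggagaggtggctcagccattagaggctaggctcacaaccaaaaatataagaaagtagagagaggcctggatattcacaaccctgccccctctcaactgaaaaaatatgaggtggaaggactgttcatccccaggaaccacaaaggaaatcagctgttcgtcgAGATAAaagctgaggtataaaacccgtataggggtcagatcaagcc
Ms4a2: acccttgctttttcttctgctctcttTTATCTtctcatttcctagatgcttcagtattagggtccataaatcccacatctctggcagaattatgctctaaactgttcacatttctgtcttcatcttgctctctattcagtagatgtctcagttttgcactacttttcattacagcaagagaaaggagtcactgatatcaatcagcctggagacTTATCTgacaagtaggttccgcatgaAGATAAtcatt
Prss34: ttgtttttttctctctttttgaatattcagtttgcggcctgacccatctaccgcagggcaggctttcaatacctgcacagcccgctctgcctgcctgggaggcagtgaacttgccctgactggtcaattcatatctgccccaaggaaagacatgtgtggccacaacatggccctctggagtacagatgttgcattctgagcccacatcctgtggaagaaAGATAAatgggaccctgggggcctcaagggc
Cd200r3: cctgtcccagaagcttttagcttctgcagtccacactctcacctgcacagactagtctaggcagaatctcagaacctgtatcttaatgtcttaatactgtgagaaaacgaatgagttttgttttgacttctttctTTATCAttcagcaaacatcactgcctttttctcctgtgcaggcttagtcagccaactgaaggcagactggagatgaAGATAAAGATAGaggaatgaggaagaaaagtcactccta
Ms4a2 and Cd200r3 each held 3 matches, and in Cd200r3 2 of them adjoin. The motif TTCNNNGAA of STAT5, a factor that acts downstream of interleukin-3, was in none of the 9 genes' windows and in 8.13% of all genes. A match is a run of letters, not a measured binding site.

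The IgE receptor genes were higher in the 5/6Nx sample on the probes that could be compared. The Fcer1a probe (chromosome 1, 175152865 to 175152924, mm9) read 16.9 ± 3.26 in the sham sample, close to the lowest level counted as well above background, and 105 ± 10.9 in the 5/6Nx sample. The difference was 2.32, a 5.01-fold higher signal, and 0.88 with normexp background correction. The SD of a difference between spots of the same position was 0.0594 log2 units over 283 bright probes printed many times, and it leaves out dim probes such as this one.

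Ms4a2 had 2 probes. The first (chromosome 19, 11690107 to 11690166) read 3.52 ± 2.61 in the sham sample, not well above background, and 193 ± 19.5 in the 5/6Nx sample, at least 12.2-fold higher. The second (11691701 to 11691760) read 2.97 ± 2.98 and 14.1 ± 3.39 and was not well above background on either array. The call for Ms4a2 thus rests on the first probe.

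The signal of the receptor runs through Fcer1g, the common gamma chain, which monocytes also use for Fc gamma receptors. Fcer1g was bright on both arrays, at 51730 and 116665, with a difference of 0.86. Of 20 genes of the IgE receptor pathway, gamma chain included, all were measured in both samples. Among these, 8 were at least 2-fold higher and 2 lower (1 with spike-in scaling), with a median of 0.84. The adaptors Lat and Grap2, shared with T cells, differed by 3.80 and 3.75, and the kinase Fyn by 1.94. Lower were Lat2, an adaptor of myeloid and B cells, at -1.74, and Inpp5d, the lipid phosphatase SHIP that restrains the pathway, at -1.13. The kinases Lyn and Syk, which start the cascade, stayed within 2-fold.

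The granule protease genes were not well above background in the sham sample and gave a clear signal in the 5/6Nx sample. Mcpt8, a mast cell protease by name and a marker of basophils in the mouse, was read by 1 probe (chromosome 14, 56701075 to 56701134). It gave 3.49 ± 3.50 in the sham sample, not well above background, and 1621 ± 162 in the 5/6Nx sample, at least 102-fold higher. Prss34, a serine protease of basophils and mast cells (chromosome 17, 25436942 to 25437001), read 12.4 ± 3.22 and 1038 ± 104. It was at least 65.6-fold higher, and its sham signal lay just under the lowest level counted as well above background. Cpa3, the carboxypeptidase A of mast cell and basophil granules (chromosome 3, 20115674 to 20115733), read 2.80 ± 2.81 and 164 ± 16.6, at least 10.3-fold higher.

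Hdc, the enzyme that makes histamine from histidine, had 3 probes, and they disagreed in size. Its symbol alone hides this, since a single probe of the 3 was measured on both arrays. The 3 designed probes are printed because the reading of the gene depends on which is used. The first (chromosome 2, 126419516 to 126419575) and the second (126420357 to 126420416) were designed on a RefSeq transcript and the third (126426030 to 126426089) on an Ensembl transcript, per the files.
Hdc probe 1: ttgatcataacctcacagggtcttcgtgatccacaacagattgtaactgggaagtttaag
Hdc probe 2: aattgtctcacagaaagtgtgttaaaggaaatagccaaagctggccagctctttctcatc
Hdc probe 3: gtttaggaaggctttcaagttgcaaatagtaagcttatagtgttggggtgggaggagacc
The first probe read 2.67 ± 2.69 in the sham sample and 2791 ± 279 in the 5/6Nx sample, at least 176-fold higher. The second read 3.04 ± 3.05 and 87.8 ± 9.31, at least 5.55-fold higher. Both were not well above background in the sham sample. The third read 110 ± 11.4 and 382 ± 38.4, a difference of 1.48 or 2.80-fold. All 3 probes were thus higher in the 5/6Nx sample, and the gene's measured difference of 1.48 is that of the probe with the highest sham signal.

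Other genes of histamine handling differed in direction. Of 8 genes, none was at least 2-fold higher (1 with a looser filter on dim probes) and 3 were lower (1 with normexp), with a median of -0.56, bounds included. Hnmt, which methylates and inactivates histamine, read 502 and 40.4, a difference of -3.94. The histamine receptor genes Hrh1 and Hrh3 were well above background in the sham sample only, at least 4.02-fold and 3.03-fold lower in the 5/6Nx sample. Slc18a2, the vesicular transporter that loads histamine into granules, differed by 0.26, and the receptor gene Hrh2 was well above background in the 5/6Nx sample only, with a bound of 0.30.

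Gata2, which with Gata1 directs the basophil and mast cell lineages, was read by 1 probe (chromosome 6, 88156835 to 88156894). It gave 2.76 ± 2.77 in the sham sample, not well above background, and 297 ± 29.8 in the 5/6Nx sample, at least 18.7-fold higher. Gata1 read 3.06 and 90.9, at least 5.74-fold higher. Of 12 further transcription factors of these lineages, Gata1 included, 4 were at least 2-fold higher (2 with normexp) and 2 lower, with a median of 0.38, bounds included. Among them, Lmo2 and Stat5a differed by 1.41 and 1.36. Cebpa, a myeloid factor, read 3448 and 264, a difference of -4.02, and Tal1 differed by -2.55. Mitf, the mast cell factor, differed by 0.29, and Spi1, which encodes PU.1, by 0.04.

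Cd200r3, an activating receptor of the CD200 receptor family on basophils and mast cells, had 3 probes. The first (chromosome 16, 44957886 to 44957945) read 3.06 ± 3.07 in the sham sample and 36.7 ± 4.86 in the 5/6Nx sample, at least 2.32-fold higher. The second (44966848 to 44966907) read 2.85 ± 2.86 and 47.9 ± 5.64, at least 3.02-fold higher. The third (45058103 to 45058162), designed on a predicted transcript and farther along the chromosome, read 2.80 ± 2.81 and 2.93 ± 2.94. It was not well above background on either array. The bound of the gene was 1.60 in log2 units, and 0.41 with normexp background correction, under 2-fold.

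Il4, which encodes interleukin-4 (chromosome 11, 53426076 to 53426135), read 3.11 ± 3.13 in the sham sample, not well above background, and 508 ± 50.9 in the 5/6Nx sample, at least 32.1-fold higher. Il13 and Il5, its partners in the type 2 cytokine locus, were not well above background on either array. Il13 read 3.30 and 7.60, and Il5 read 2.90 and 2.96. Of 7 genes of the interleukin-4 receptor and its signalling, 2 were at least 2-fold higher and none lower, with a median of 0.22. These were Il2rg, the common gamma chain of cytokine receptors, at 3.07 and the kinase Jak3 at 1.63. The receptor chain Il4ra and the factor Stat6 differed by -0.19 and -0.31.

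Genes that macrophages are known to switch on with interleukin-4 went both ways. Of 16, 8 were at least 2-fold higher (5 with normexp) and 3 lower, with a median of 1.11, bounds included, and 0.24 with normexp background correction. Cish, a feedback inhibitor of cytokine signalling, differed by 6.26, Pdcd1lg2, the checkpoint ligand PD-L2, by 5.73 and Irf4 by 4.41. Arg1, the arginase, differed by -6.77, the lectin Clec10a by -4.12 and the mannose receptor Mrc1 by -2.44. Retnla and Chil4 were not well above background on either array.

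**Figure D1:**
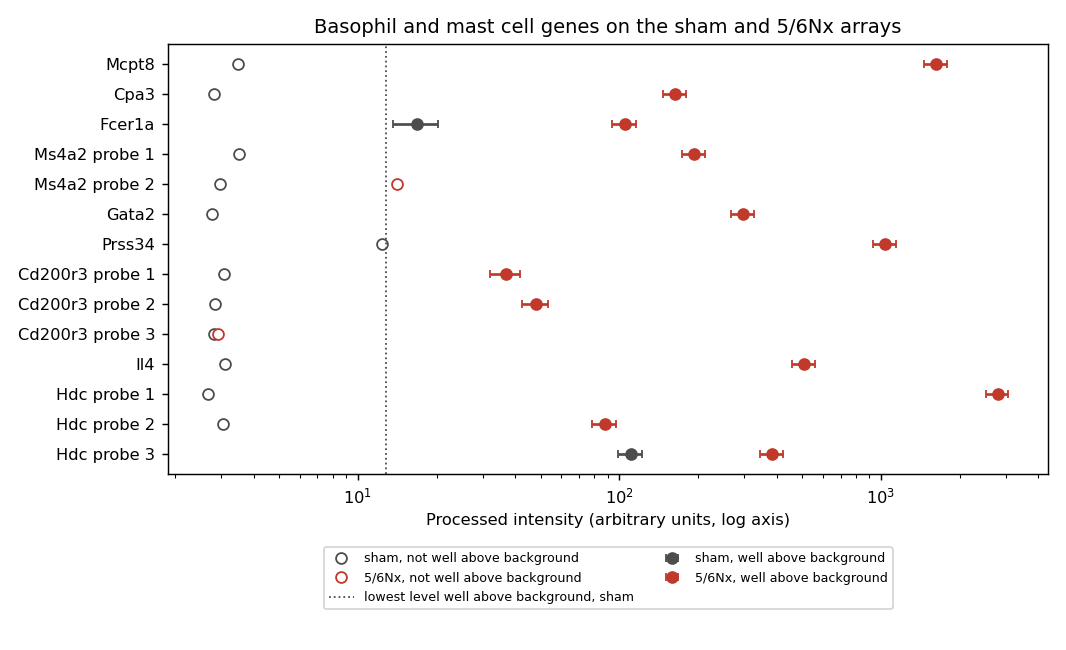
Processed intensity (log axis) of each of the 14 probes of the 9 genes in the sham sample (grey) and the 5/6Nx array (red), 1 array each. Filled points were well above background, bars are the software error of the spot, open points were not well above background, and the dotted line marks the sham level used for bounds, 12.8, which is the lowest mean log2 value over spots of a probe well above background. Probes of a gene are numbered by position, and 12 of the 14 were well above background in the 5/6Nx sample against 2 in the sham sample. Of all spots other than controls the shares were 67.0% and 63.0%.

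Over the 14 probes, 2 were well above background in the sham sample and 12 in the 5/6Nx sample. Of all spots other than controls, 63.0% and 67.0% were well above background. A looser call of the same software, positive and significant against background, held for 4 probes in the sham sample and 13 in the 5/6Nx sample. The share of all spots with that looser call was not counted. Summed over the brightest compared probe of each gene, the 9 genes came to 0.358 times the 75th percentile in the sham sample and 7.95 times in the 5/6Nx sample. Most of the sham sum was the third Hdc probe, at an intensity of 110, and 7 genes entered it with values not well above background. The first Hdc probe, at 2791 in the 5/6Nx sample, was not in the sums. The median over the 9 genes, bounds included, was 3.61, against -0.06 over all genes with a difference or bound. In sorted bulk cells, more cells of a type and more RNA per cell cannot be told apart.

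Further genes of basophils were less uniform. Of 15, 6 were at least 2-fold higher and 2 lower, with a median of 0.73, bounds included. Il18r1, the interleukin-18 receptor, read 26.5 and 3135, a difference of 6.58, and Il1rl1, the interleukin-33 receptor ST2, differed by 3.75. T and NK cells also use both receptors. Cyp11a1, a steroid-synthesis enzyme, read 3.03 and 223, at least 14.1-fold higher. Itga2b and the prostaglandin D2 receptor gene Ptgdr2 were at least 3.74-fold and 3.29-fold higher. The eotaxin receptor gene Ccr3 was well above background in the 5/6Nx sample only, with a bound of 1.68-fold. Il3ra and Csf2rb, chains of the interleukin-3 receptor that sustains basophils, differed by 0.26 and 1.04. The tetraspanins Cd63 and Cd9, both bright in the sham sample, differed by -2.61 and -3.34.

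Genes of mature mast cells were divided between background and measured levels. Of 15, 7 were not well above background on either array, among them the proteases Mcpt1, Mcpt2 and Mcpt9, the tryptases Tpsab1 and Tpsg1 and the receptors Mrgprb1 and Mrgprb2. In this list 3 genes were at least 2-fold higher (0 with normexp) and 1 was lower, with a median of 0.28, bounds included. Cma1, a chymase, read 6.83 and 39.3, at least 2.49-fold higher, and Rab27b, a regulator of granule release, was at least 2.51-fold higher. Kit, the stem cell factor receptor, differed by 1.12. The chymase Mcpt4 differed by -0.60, the tryptase Tpsb2 by 0.30 and Hpgds, the prostaglandin D2 synthase, by -2.07.

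Markers of other cells that make interleukin-4 or share these genes were counted in the same way. Of 14 T cell markers 12 were at least 2-fold higher and none lower, with none at background on both arrays. Their summed level was 7.92 times the 75th percentile in the sham sample and 90.8 times in the 5/6Nx sample. All 11 NK cell markers were at least 2-fold higher, with sums of 0.796 and 104. Of 10 markers of Th2 cells and ILC2 (type 2 innate lymphoid cells), 5 were higher and none lower, with sums of 25.4 and 41.4. Most of the sham sum was Il7r, which read 9496 and 9000, a difference of -0.39. Icos differed by 5.89, Bcl11b by 4.79 and Rora by 1.28, and Klrg1 was at least 57.3-fold higher. Gata3, their lead factor, read 247 and 4206, a difference of 3.78. Il5, Il13 and Areg were at background on both arrays. Of 8 eosinophil markers 3 were higher (1 with normexp) and none lower (1 with the looser filter), with sums of 1.37 and 3.53. Prg2, the major basic protein that basophils also make, read 3.05 and 482, at least 30.5-fold higher, while Epx, the eosinophil peroxidase, was at background on both arrays. The part of any of these cells in the levels of the 9 genes was not tested.

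**Figure D2:**
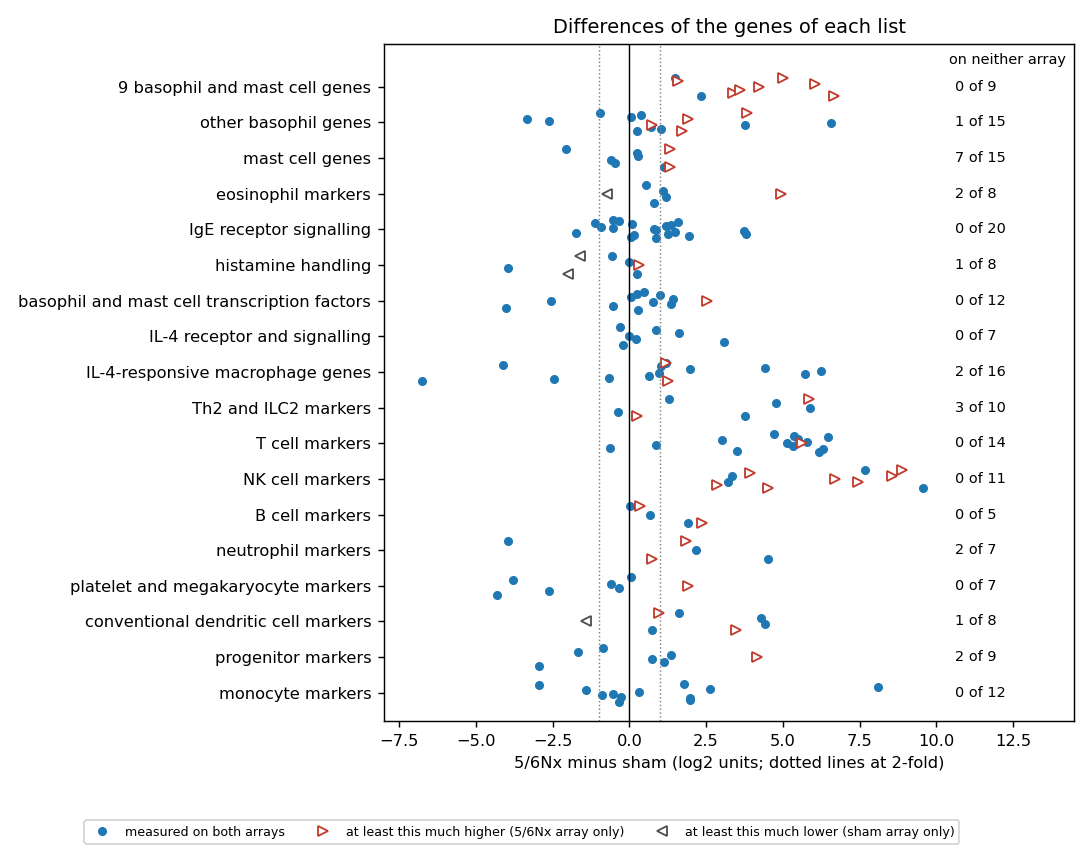
Difference between the arrays (5/6Nx minus sham, log2 units) for each gene of the 9 and of 17 other lists. Filled points were measured on both arrays, open triangles are bounds of genes well above background on 1 array only, and the column at the right counts genes not well above background on either array. All 9 genes at the top lie right of the 2-fold line, whereas 7 of 15 mast cell genes were on neither array.

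The genes that lie beside the 9 on the chromosomes were compared, taking the nearest 2 on each side by the probe positions in the files. Of these 36 genes, 3 were at least 2-fold higher (8.33%), against 10.1% of all genes, and 4 were lower, against 7.59%. Not well above background on either array were 14, against 7067 of all 24813 genes. Beside Mcpt8, in a cluster of granule protease genes, Ctsg (17.7 kb away) was at least 17.7-fold higher and Gzme had a bound of 2.26 log2 units. Mcpt4, on the other side at 22.5 kb, differed by -0.60, and Mcpt2 was at background. Ms4a2 lay between Ms4a6d, at 1.69, and Ms4a3, at background on both arrays. Beside Cd200r3 the related receptor genes went the other way, with Cd200r2 at -1.48 and Cd200r4 in the sham sample only with a bound of -3.58. Il4 lay between Kif3a, at -1.47, and Il13, with Rad50, on the far side of Il13, at -0.17. Prss34 lay beside 2 related protease genes, Prss28 at 0.68 and Prss29 at background. Hdc lay between Slc27a2, at background, and Gabpb1, at 0.20.

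**Figure D3:**
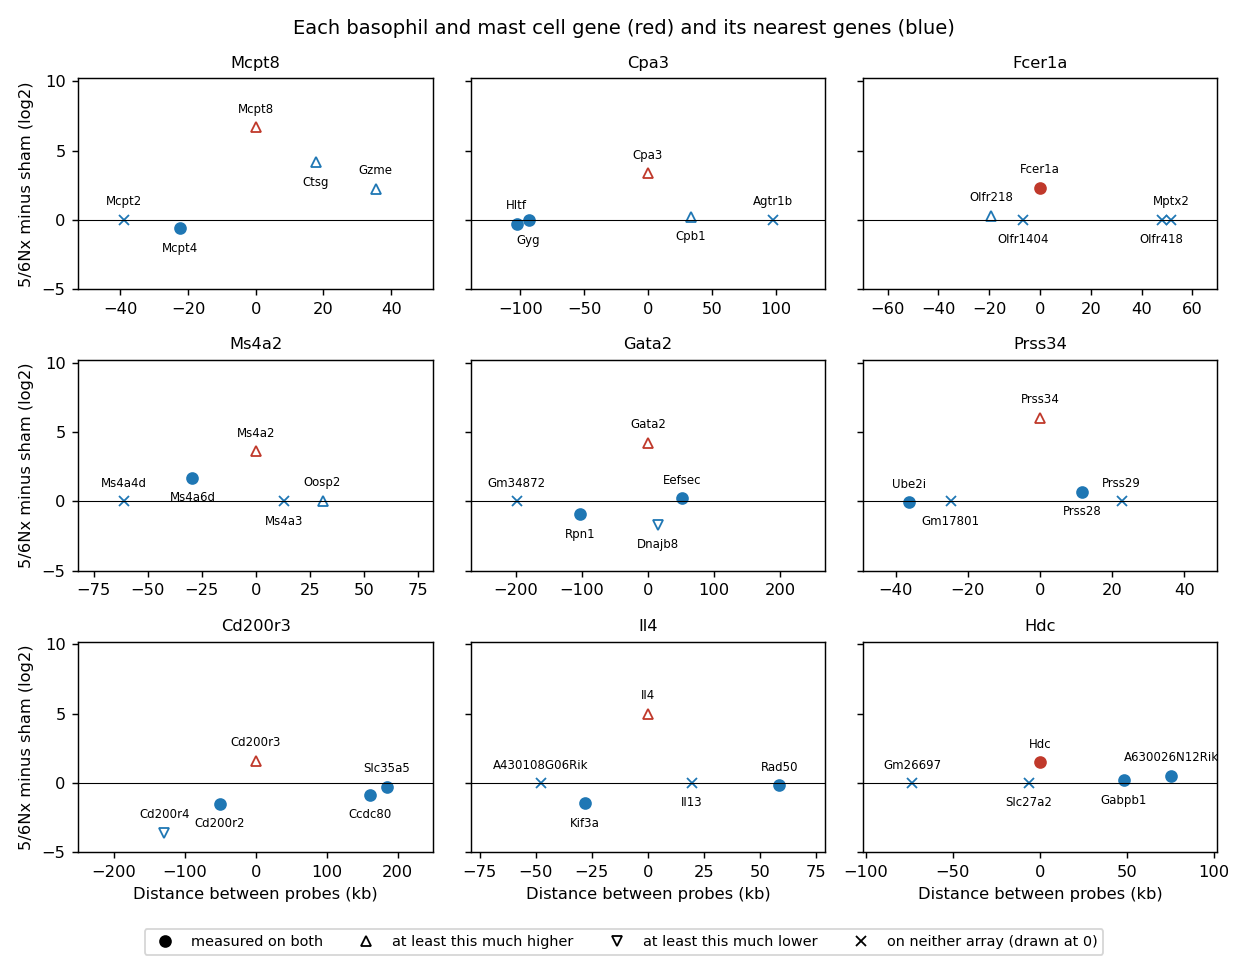
Difference between the arrays (5/6Nx minus sham, log2 units) of each of the 9 genes (red) and the nearest 2 genes on each side (blue), against the distance between probes in kb. Filled points were measured on both arrays, triangles are bounds of genes on 1 array only, and crosses mark genes on neither array, drawn at 0. Of the 36 neighbours 3 were at least 2-fold higher (8.33%), against 10.1% of all genes.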

How the data were processed

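The members and the gene lists were chosen with earlier results of these data known. The deposited processed intensity came from Agilent Feature Extraction, 10.7.1.1 per the file headers and 9.5.1.1 per the submitters' processing notes. Per the file headers, it was detrended spatially and multiplicatively, local background correction was off, and low spots got surrogate values. The sources used here do not give how the authors' own table was normalized between arrays. It holds the intensity of 52145 probes on a linear scale (medians 47.5 for sham and 48.2 for 5/6Nx).

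Controls and flagged outlier spots (41 and 47) were left out, and no spot was saturated. The value was log2 intensity minus log2 of the 75th percentile of that array's 59305 spots other than controls. Spots were averaged per probe. Probes were named by RefSeq accession (32992), symbol (10224) or synonym (520), and 12867 others were left out of gene counts. A gene was represented by its brightest probe well above background on both arrays, and otherwise by a bound. Listed genes, all members and the nearest 2 genes on each side could be named, and with 2 arrays no likeness of pattern was measured. Positions are those of the files (mm9), and exon or UTR annotation was not used here. Steps were tested on simulated data. Python 3.11.15, numpy 2.4.6, R 4.3.3 and limma 3.58.1 (normexp) were used. The number of arrays limits the precision.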

Additional observations from a re-analysis of the deposited data

How the results depend on the processing

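The 10 alternatives were other scalings, normexp, the authors' value table, looser or no filters on dim probes, the mean over a gene's probes and another floor for bounds. All 9 genes kept their direction in them. For a gene with a bound this was fixed in advance, since only a bound on the higher side was kept. With no filter on dim probes every gene had a difference, and all 9 were at least 2-fold higher. The share of all genes was not counted for that setting, and 7 of these differences rest on sham values not well above background. With the looser filter 14.7% of all genes were at least 2-fold higher, bounds included. With the looser filter 4 of the 9 were measured on both arrays in place of 2, and 19364 of all 24813 genes in place of 15715. Normexp put Fcer1a (0.88) and Cd200r3 (0.41) under 2-fold, and over the alternatives Fcer1a ran from 0.88 to 2.76 and Hdc from 1.11 to 1.92 log2 units. The bound of Mcpt8 ran from 4.06 to 7.11 where the filter on dim probes was kept, and the probe's own values differed by 8.55. With normexp the counts of genes at least 2-fold higher were 0 of 15 for mast cell genes, 5 of 16 for interleukin-4-responsive genes, 2 of 12 for transcription factors, and 1 each for eosinophil and progenitor markers, and 0 for platelet markers, while 1 histamine gene and 0 dendritic cell markers were lower. With spike-in scaling 1 IgE pathway gene was lower in place of 2. The offset of normexp shrinks differences near background by its construction. No paired analysis was possible because each group has 1 array, and for the same reason no array could be left out. The 7 genes with sham values not well above background limit what can be said of fold sizes.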

Other observations

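Markers of 4 further cell types were read on the same arrays. Of 7 neutrophil markers 3 were at least 2-fold higher in the 5/6Nx sample and 1 was lower. Ly6g differed by 4.53 log2 units (5/6Nx minus sham) and Mmp8, the neutrophil collagenase, by -3.97, while the granule genes Ltf and Ngp were at background on both arrays. Of 8 conventional dendritic cell markers 4 were higher and 1 lower, among them Itgae at 4.43 and Batf3 at 4.28, and Zbtb46 was at least 11.1-fold higher.

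Of 7 platelet and megakaryocyte markers, a lineage that also uses Gata2, 1 was higher and 3 were lower. Pf4, platelet factor 4, read 163186 in the sham sample and 10232 in the 5/6Nx sample, a difference of -4.30, and Ppbp differed by -2.62. Of 9 progenitor markers 3 were higher and 2 lower. Ctsg was at least 17.7-fold higher, and Mpo, the myeloperoxidase, and Kit differed by 1.36 and 1.12. Cd34 differed by -2.93 and Elane, the neutrophil elastase, by -1.66, while Prtn3 and Ms4a3 were at background on both arrays.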
